A study of Mus musculus with 7 samples.

Results

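The 38 genes described here make sterols and fatty acids or regulate their making. They were chosen by name from a written list: 8 genes of the mevalonate arm, 10 of the sterol arm, 7 regulators of the SREBP transcription factors, the sterol carrier Stard4, and 12 genes that supply, build, desaturate or elongate fatty acids. All 38 were among the 34592 rows of the count table, and all 38 were among the 17389 genes that passed the filter on low counts. RNA-seq was done on 7 mouse medulloblastomas of the G3 subgroup (G3 MBs), of which 4 are labelled WDR11OE and 3 are controls. Their source labels name tumorspheres, as the paper's abstract does for the transcriptome, while its methods describe tumor samples. They are called tumors here. Every tumor came from tumorsphere line # 19568, which goes back to cerebellar granule neuron progenitors carrying an MSCV retrovirus for Myc. The paper's methods give Myc-IRES-GFP for this line, while a figure legend gives Myc-IRES-RFP. The study's methods give Trp53-/-; Cdkn2c-/- pups as the source of the progenitors of its G3 model. Tumorspheres of the WDR11OE group were infected with the lentivirus pCDH-EF1-WDR11-T2A-copGFP. The protocol gives the empty vector pCDH-EF1-MCS-T2A-copGFP for the controls, while their treatment label reads none. Infected cells were not sorted before they were placed, in Matrigel, in the cortices of CD1-nu/nu mice, so a tumor chunk could hold uninfected tumor cells and host brain. Tumors were taken from moribund mice. The groups thus share the loss of Trp53 and Cdkn2c, the Myc retrovirus and the host strain, and they rest on 1 tumorsphere line.

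The label was first set against the transgene. The row named hWDR11, by its name the human cDNA, stood at 2.03, 2.19 and 3.13 CPM (read counts scaled to the library size) in control 1 to 3 and at 4.38, 2.11, 3.05 and 0.624 CPM in WDR11OE 1 to 4. The groups overlapped, with a log2 fold change of 0.05 (SE 0.58, adjusted p = 0.961), so this row did not separate them. For that reason the WDR11OE tumors are called by their label throughout, and every direction below is that of the tumors labelled WDR11OE against the controls. The paper itself reports more WDR11 transcript by qRT-PCR in tumors of this line, and WDR11 protein by immunofluorescence in tumorspheres grown from such tumors. Whether those were the tumors sequenced is not stated. Mouse Wdr11 was at 58.8 ± 0.464 CPM (SD, n = 3) in the controls and at 65.6 ± 3.36 CPM (SD, n = 4) in the tumors labelled WDR11OE, with an adjusted p of 0.0910. Libraries of the groups carry numbers from separate series, so the label and the library series cannot be told apart. Total counts per tumor ran from 32116095 to 87141305. Neuron markers varied widely between tumors, from 60.96 to 421 CPM in sum in the controls and from 11.04 to 661 CPM in the tumors labelled WDR11OE. Of the granule lineage markers, Atoh1 and Barhl1 did not pass the filter, and none of the other 5 (Zic1, Zic2, Neurod1, Pax6 and Meis1) passed the test. In bulk tumors such as these, fewer cells of a type and less RNA per cell cannot be told apart.

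Cells make cholesterol from acetyl-CoA through mevalonate and the isoprenoids farnesyl and geranylgeranyl diphosphate, which are also attached to proteins, and then through squalene and a chain of sterols. SREBP transcription factors, encoded by Srebf1 and Srebf2, sit in the endoplasmic reticulum bound to Scap. When sterols are scarce, Scap carries them to the Golgi, where the proteases encoded by Mbtps1 and Mbtps2 release the active factor, and when sterols are ample, the Insig proteins hold Scap back. SREBP2 acts mainly on sterol genes and SREBP1 mainly on fatty acid genes. The brain makes nearly all of its own cholesterol, and dividing tumor cells need sterols and fatty acids for new membranes.

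The promoters of these genes are known for sterol regulatory elements that lie near boxes for NF-Y and Sp1. The RefSeq promoter table (build GRCm38.p6) held 31 of the 38 genes by symbol. It was searched in the 250 bases before each start, on both strands, for a classical sterol regulatory element (TCACNCCAC), the NF-Y box (CCAAT) and the Sp1 box (GGGCGG). The NF-Y box was found for 23 of the 31 genes (74.2%), against 37.5% of 27025 genes in the table. The Sp1 box was likewise found for 23 of 31 (74.2%), against 35.4%. The exact sterol element was found for Hmgcs1 alone (3.23%, against 1.22%). Scd1, Stard4, Fdft1, Fdps, Scd2, Sqle and Fads1 were not matched. A match describes letters in a window and not a bound site. The shares for the whole table cover every gene in it, whether or not it passed the filter on low counts here. A gene counted if any of its starts held the letters. Shown here, in their own 5′ to 3′ direction with the matches in capitals, are the windows of Hmgcs1, which holds that element, of Srebf2 and Fasn, which were lower in the tumors labelled WDR11OE, and of Ggps1, which was higher.
Hmgcs1 (chr13:119690101-119690350, plus strand): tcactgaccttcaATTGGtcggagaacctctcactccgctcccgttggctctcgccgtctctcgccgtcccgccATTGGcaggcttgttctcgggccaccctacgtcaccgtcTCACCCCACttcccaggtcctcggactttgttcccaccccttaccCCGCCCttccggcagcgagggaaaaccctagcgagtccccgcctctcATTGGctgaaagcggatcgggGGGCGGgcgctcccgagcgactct
Srebf2 (chr15:82147019-82147268, plus strand): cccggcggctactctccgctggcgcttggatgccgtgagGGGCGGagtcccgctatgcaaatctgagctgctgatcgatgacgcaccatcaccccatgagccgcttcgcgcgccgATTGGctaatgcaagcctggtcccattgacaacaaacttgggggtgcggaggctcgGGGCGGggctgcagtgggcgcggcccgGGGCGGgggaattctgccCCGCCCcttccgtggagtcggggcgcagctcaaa
Fasn (chr11:120824548-120824797, minus strand): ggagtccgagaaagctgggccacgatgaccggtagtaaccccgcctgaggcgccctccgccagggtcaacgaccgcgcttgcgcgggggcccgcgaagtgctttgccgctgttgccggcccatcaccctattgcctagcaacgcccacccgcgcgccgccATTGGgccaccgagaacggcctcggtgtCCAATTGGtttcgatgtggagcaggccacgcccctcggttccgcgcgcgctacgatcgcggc
Ggps1 (chr13:14063489-14063738, minus strand): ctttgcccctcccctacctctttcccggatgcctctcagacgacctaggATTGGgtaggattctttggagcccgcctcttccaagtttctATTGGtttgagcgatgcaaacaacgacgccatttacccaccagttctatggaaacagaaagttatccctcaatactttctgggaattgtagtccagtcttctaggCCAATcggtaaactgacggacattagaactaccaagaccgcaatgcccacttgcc
In Hmgcs1, the sterol element lay 137 to 129 bases before the start, with NF-Y boxes on either side of it, the closest to the start 45 to 41 bases before it. Srebf2 had 4 Sp1 boxes and 1 NF-Y box. Fasn and Ggps1 each had 3 NF-Y boxes and no Sp1 box, and in Fasn a pair of the NF-Y boxes on opposite strands overlapped each other.

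At an adjusted p under 0.05, 14 of the 38 genes differed between the groups, 10 with a lower and 4 with a higher level in the tumors labelled WDR11OE. The count of higher genes fell to 1 without control 2, WDR11OE 1 or WDR11OE 2, and to 2 without control 1 or control 3. In the same fits and order, the share of all genes called higher was 11.6%, 9.12%, 9.65%, 14.5% and 14.7%. Over all 17389 genes tested, 33.9% passed this threshold, 15.8% lower and 18.1% higher, against 36.8% of the 38, so the share of these genes that passed was close to that of all genes. The median log2 fold change of the 38 was -0.10, and that of all genes was 0.08. A change of at least 2-fold was reached by 1 gene, Srebf2, where the background was 5.81%, 3.43% lower and 2.38% higher. In the remaining 24 genes the test was not passed. Of the 7 SREBP regulators, 4 fell and 1 rose, at a median of -0.52 on the log2 scale. Of the 12 fatty acid genes, 5 fell and none rose, with a median of -0.35, and 10 of the 12 fold changes were negative. Of the 18 enzymes of the mevalonate and sterol arms, 1 fell and 3 rose, with a median of 0.10. Whether these roles differ from each other was not tested.

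**Figure D1:**
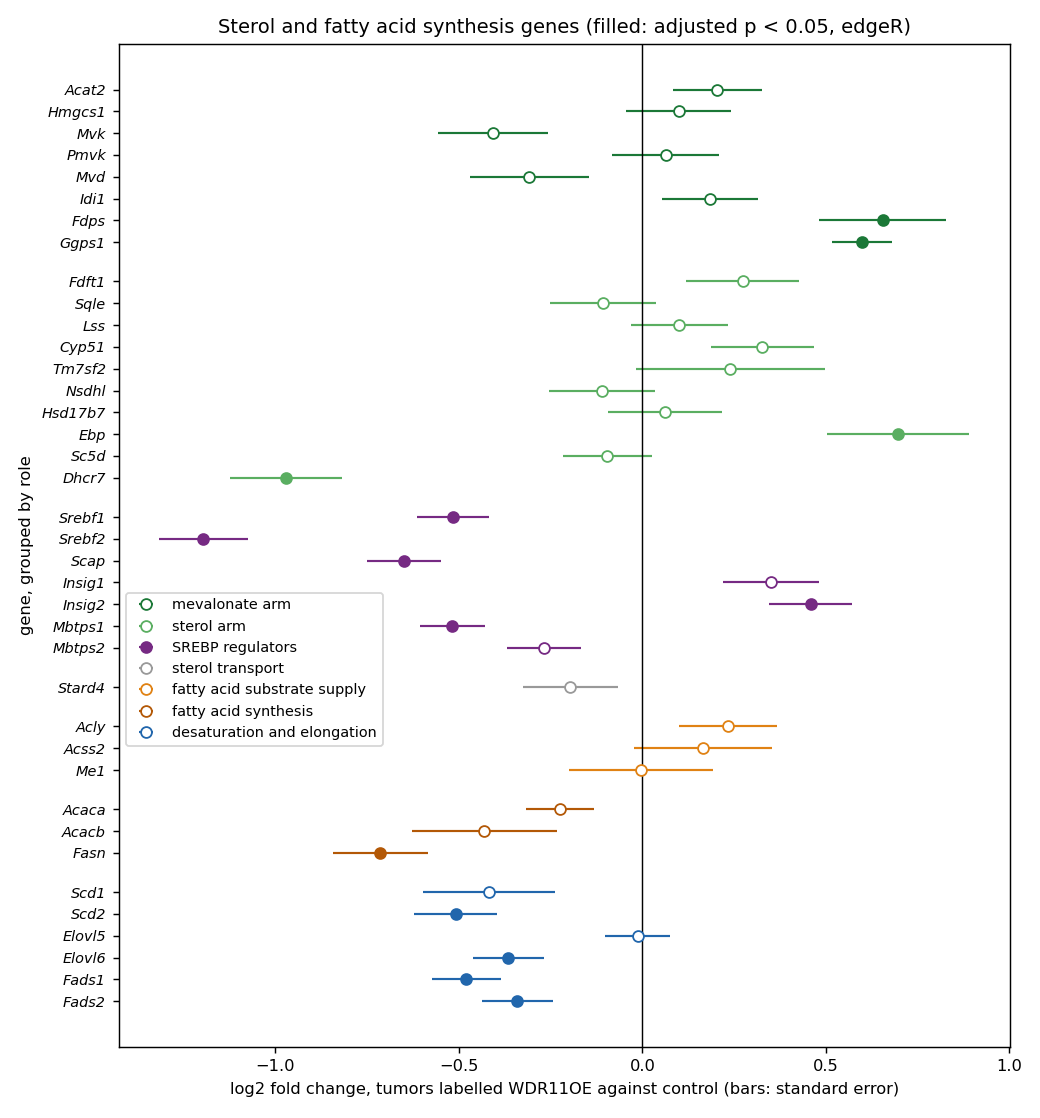
Log2 fold change (x axis) of each of the 38 genes (y axis, grouped by role and colored by it) in the 4 tumors labelled WDR11OE against 3 controls, with bars for the standard error and filled points at an adjusted p under 0.05. The filled points of the regulators and fatty acid genes lie left of 0 except Insig2, while those of the mevalonate and sterol arms lie right of 0 except Dhcr7.

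The transcription factor genes were lower together with their escort. Srebf2, which encodes the main activator of sterol genes, stood at 170.4, 142 and 169 CPM in the controls and at 61.6, 76.8, 79.3 and 62.3 CPM in the tumors labelled WDR11OE. Every such tumor lay below every control, and the fold change was the lowest of the 38 (log2 fold change -1.20, SE 0.12, adjusted p = 0.00106), a 2.29-fold lower level. Srebf1, the gene of the activator of fatty acid genes, was at 81.2, 67.8 and 75.1 CPM in the controls and at 50.7, 58.2, 53.6 and 46.4 CPM in the other group. Its groups did not overlap either, and it fell (log2 fold change -0.52, SE 0.10, adjusted p = 0.00670), a call that was lost with the GC trend, the dependence of counts on exon GC content in each tumor, removed (-0.21, adjusted p = 0.143). Scap, the sterol-sensing escort of both factors, was at 107, 99.98 and 104 CPM against 58.4, 72.5, 74.0 and 60.1 CPM. It too was lower in each tumor labelled WDR11OE, by a log2 fold change of -0.65 (SE 0.10, adjusted p = 0.00324), or of -0.30 with the GC trend removed (adjusted p = 0.0491). Within a tumor, the log2 ratio of Srebf1 to Srebf2 was -1.10 ± 0.06 (SD, n = 3) in the controls and -0.42 ± 0.12 (SD, n = 4) in the tumors labelled WDR11OE. This ratio was higher in all 4 of them (difference 0.68, two-sided exact permutation p = 0.0286, the smallest that 35 splits allow, and 0.171 adjusted over the 6 ratios tested), so it did not pass the correction.

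The proteases and retention proteins of the same pathway were mixed. Mbtps1, the Golgi protease that makes the first cut in SREBP, was at 213, 209 and 248 CPM in the controls and at 156, 163, 162 and 142 CPM in the tumors labelled WDR11OE. These values did not overlap, with a log2 fold change of -0.52 (SE 0.09, adjusted p = 0.00444). Mbtps2, the protease of the second cut, was at 45.3 ± 4.50 CPM (SD, n = 3) against 37.6 ± 3.50 CPM (SD, n = 4), and its adjusted p of 0.0810 missed the threshold. It passed with the GC trend removed (log2 fold change -0.68, adjusted p = 0.00280). Insig2, which retains Scap in the endoplasmic reticulum, was the regulator that rose. It stood at 13.6, 12.9 and 11.3 CPM in the controls and at 17.1, 16.5, 16.8 and 18.9 CPM in the tumors labelled WDR11OE, without overlap (log2 fold change 0.46, SE 0.11, adjusted p = 0.0185). The call of Insig2 was lost when control 2 (adjusted p = 0.0502), control 3 (0.0530), WDR11OE 1 (0.0710) or WDR11OE 2 (0.0663) was left out, and with the GC trend removed (0.34, adjusted p = 0.0592). Insig1, the other retention protein and itself a classical SREBP target, was at 51.0 ± 8.0 CPM (SD, n = 3) and 65.0 ± 6.94 CPM (SD, n = 4). Its groups did not overlap, yet the log2 fold change of 0.35 did not pass the test (SE 0.13, adjusted p = 0.0773). Lack of overlap was seen in 17 of the 38 genes, 11 lower and 6 higher, and in 42.7% of all genes tested. The ratio of Insig1 to Insig2 differed by -0.10 on the log2 scale (exact permutation p = 0.600).

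**Figure D2:**
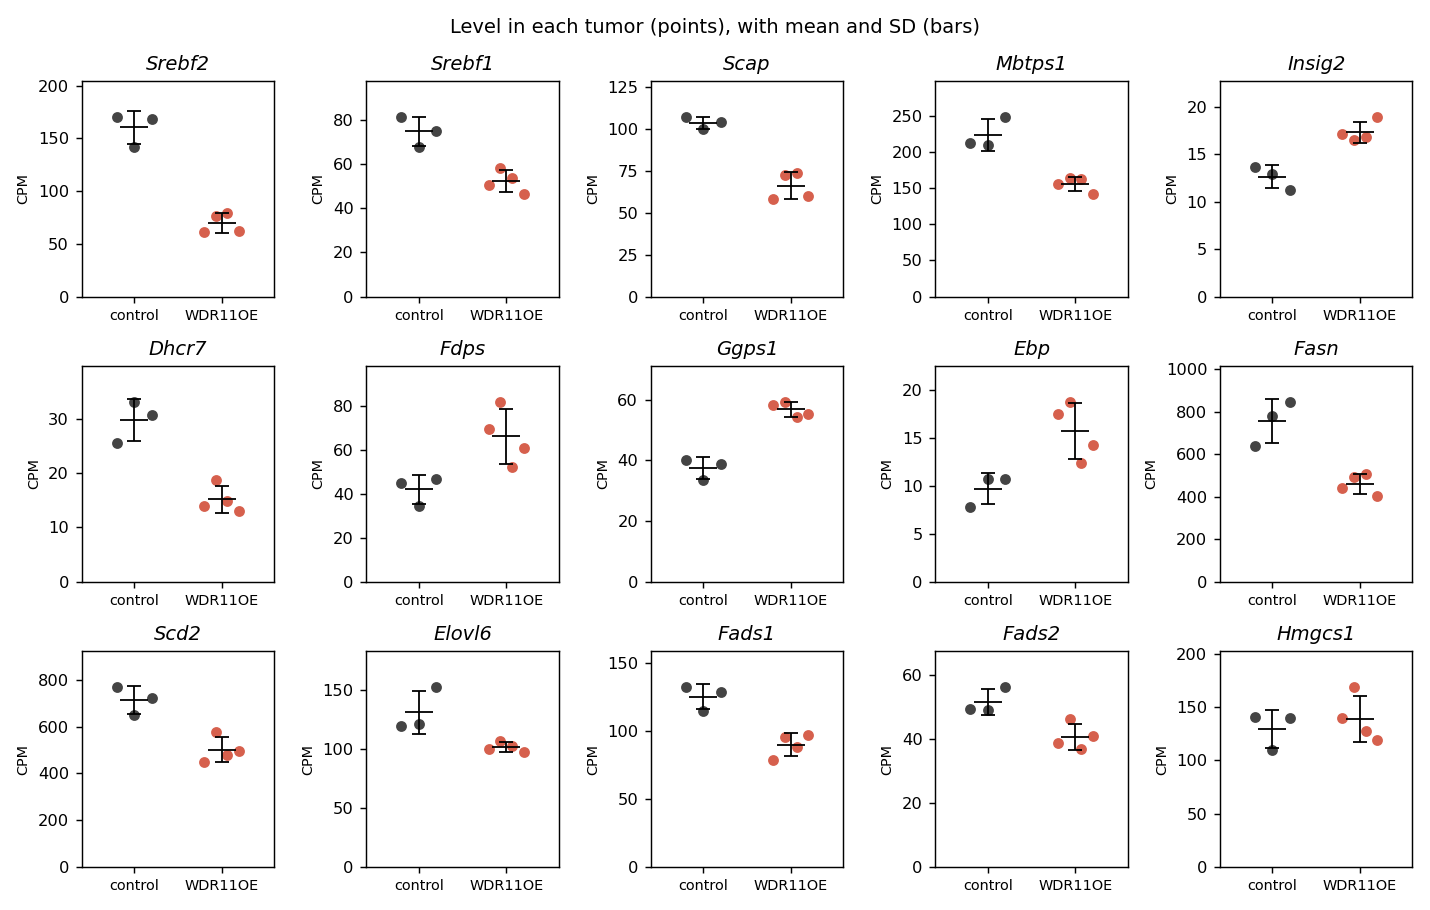
CPM (y axis, from 0) in each tumor for 15 genes, with gray points for 3 controls, red points for 4 tumors labelled WDR11OE, and the mean with its SD. The panels are the 14 genes at an adjusted p under 0.05 and Hmgcs1, so the gaps follow from that choice. The groups are apart in every panel but that of Hmgcs1, and they are apart in 42.7% of all genes tested. Srebf2 shows the widest gap for its level.

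In the mevalonate arm, Fdps and Ggps1 rose and the other 6 enzymes did not pass the test. Hmgcs1, which makes HMG-CoA and is a classical SREBP2 target, was at 140.4, 109 and 139.5 CPM in the controls and at 139.7, 169, 128 and 119 CPM in the tumors labelled WDR11OE. The groups overlapped, with a log2 fold change of 0.10 (SE 0.14, adjusted p = 0.644). Its row carries the name of an unplaced contig, so it has no GC content, length or position in the annotation. Fdps, which makes farnesyl diphosphate, was at 44.8, 34.5 and 46.8 CPM in the controls and at 69.4, 81.7, 52.4 and 60.9 CPM in the others. It rose without overlap (log2 fold change 0.65, SE 0.17, adjusted p = 0.0245), but the call was lost without control 1 (adjusted p = 0.0523), control 2 (0.0834), WDR11OE 1 (0.0934) or WDR11OE 2 (0.0749). Ggps1, which makes geranylgeranyl diphosphate, was at 40.1, 33.5 and 38.9 CPM against 58.3, 59.2, 54.4 and 55.2 CPM. All 4 tumors labelled WDR11OE were higher than the controls (log2 fold change 0.60, SE 0.08, adjusted p = 0.00199). The log2 fold change of Ggps1 with the GC trend removed was 0.27, just past the threshold (adjusted p = 0.0497). The other enzymes of the arm, Acat2, Mvk, Pmvk, Mvd and Idi1, had log2 fold changes from -0.41 (Mvk, mevalonate kinase, adjusted p = 0.0752) to 0.20 (Acat2, adjusted p = 0.243).

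The sterol arm held the second lowest fold change of the 38 and the highest. Dhcr7, the reductase that finishes cholesterol, was at 25.6, 33.1 and 30.7 CPM in the controls and at 14.0, 18.8, 14.9 and 13.05 CPM in the tumors labelled WDR11OE. It was lower in each of them, by a log2 fold change of -0.97 (SE 0.15, adjusted p = 0.00346). Ebp, the isomerase that moves a sterol double bond earlier in the chain, was at 7.81, 10.7 and 10.7 CPM against 17.5, 18.8, 12.4 and 14.3 CPM. Its groups did not overlap and it rose by a log2 fold change of 0.70 (SE 0.19, adjusted p = 0.0292). The call of Ebp was lost when control 1, 2 or 3 or WDR11OE 1 or 2 was left out, with adjusted p from 0.0567 to 0.116, and with the GC trend removed (0.61, adjusted p = 0.0533). Sqle, the squalene epoxidase that limits the rate after squalene, was at 101, 81.0 and 108 CPM in the controls and at 90.4, 108, 85.3 and 75.2 CPM in the others. Those values overlapped (log2 fold change -0.11, SE 0.14, adjusted p = 0.613). Cyp51, which removes a methyl group from lanosterol, was higher in all 4 tumors labelled WDR11OE without passing the test (log2 fold change 0.33, SE 0.14, adjusted p = 0.116). The remaining 6 enzymes, Fdft1, Lss, Tm7sf2, Nsdhl, Hsd17b7 and Sc5d, lay between log2 fold changes of -0.11 (Nsdhl) and 0.27 (Fdft1, squalene synthase). Stard4, which carries cholesterol between membranes, was at 61.4 ± 6.22 CPM (SD, n = 3) and 53.6 ± 7.74 CPM (SD, n = 4), with an adjusted p of 0.296.

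In fatty acid synthesis the synthase fell, and the genes that supply acetyl-CoA and NADPH did not pass the test. Fasn, the synthase that builds palmitate, was at 641, 780.5 and 845 CPM in the controls and at 441, 492, 506 and 403 CPM in the tumors labelled WDR11OE. Every one of them was below every control (log2 fold change -0.71, SE 0.13, adjusted p = 0.00558), a 1.64-fold lower level. Removal of the GC trend left Fasn at a log2 fold change of -0.43 (adjusted p = 0.0312). Acly, which makes cytosolic acetyl-CoA from citrate, was at 236, 233 and 299 CPM against 333, 330.1, 283 and 258 CPM. These groups overlapped (log2 fold change 0.23, SE 0.13, adjusted p = 0.224). Acaca and Acacb, the carboxylases that make malonyl-CoA, had log2 fold changes of -0.22 (adjusted p = 0.101) and -0.43 (adjusted p = 0.138). The values of Acacb did not overlap, but it was the lowest of the 37 genes with a known length, at 0.223 CPM per kb in the controls. Acss2, which activates acetate, and Me1, which supplies NADPH, were at log2 fold changes of 0.16 and -0.00, neither past the test.

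Of the 6 desaturases and elongases, 4 fell and none rose. Scd2, the stearoyl-CoA desaturase of brain, was at 769, 649 and 722 CPM in the controls and at 449.8, 577, 481 and 498 CPM in the tumors labelled WDR11OE. It was lower in each of them (log2 fold change -0.51, SE 0.11, adjusted p = 0.0125), and it missed the threshold without WDR11OE 1 (adjusted p = 0.0621). Scd1, its counterpart in liver and fat, was at 116, 66.5 and 84.4 CPM against 60.9, 75.5, 63.4 and 65.9 CPM, which overlapped (log2 fold change -0.42, SE 0.18, adjusted p = 0.115). Single controls moved Scd1, to -0.19 without control 1 (adjusted p = 0.331) and past the threshold, to -0.59, without control 2 (adjusted p = 0.0339). Elovl6, which lengthens palmitate, was at 119, 121 and 152 CPM in the controls and at 100.2, 107, 102 and 97.0 CPM in the others. It fell without overlap (log2 fold change -0.36, SE 0.10, adjusted p = 0.0256), and the call was lost without WDR11OE 1 (0.0811) or WDR11OE 3 (0.0567). Elovl6 was at -0.58 with the GC trend removed (adjusted p = 0.00652). Elovl5, which lengthens polyunsaturated fatty acids, was at 65.0 ± 2.77 CPM (SD, n = 3) and 64.4 ± 6.15 CPM (SD, n = 4), which is -0.01 on the log2 scale.

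Fads1 and Fads2, neighbors on chromosome 19 that desaturate polyunsaturated fatty acids, were both lower. For Fads1 the controls were at 132, 115 and 129 CPM and the tumors labelled WDR11OE at 78.4, 95.3, 88.3 and 97.3 CPM. The groups were apart (log2 fold change -0.48, SE 0.09, adjusted p = 0.00782). For Fads2 the values were 49.3, 49.1 and 56.3 CPM against 38.9, 46.3, 36.8 and 40.9 CPM. Here too they were apart (log2 fold change -0.34, SE 0.10, adjusted p = 0.0324), but the call was lost when control 1 (0.0537), control 2 (0.0624), control 3 (0.104), WDR11OE 1 (0.105) or WDR11OE 3 (0.0733) was left out. With the GC trend removed, Fads2 was at -0.12 (adjusted p = 0.376). Within tumors, none of 4 ratios of paired genes of this pathway passed the test. They were Acaca to Acacb (difference 0.20, exact permutation p = 0.257), Scd1 to Scd2 (0.12, p = 0.4), Elovl5 to Elovl6 (0.34, p = 0.0857) and Fads1 to Fads2 (-0.14, p = 0.286).

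**Figure D3:**
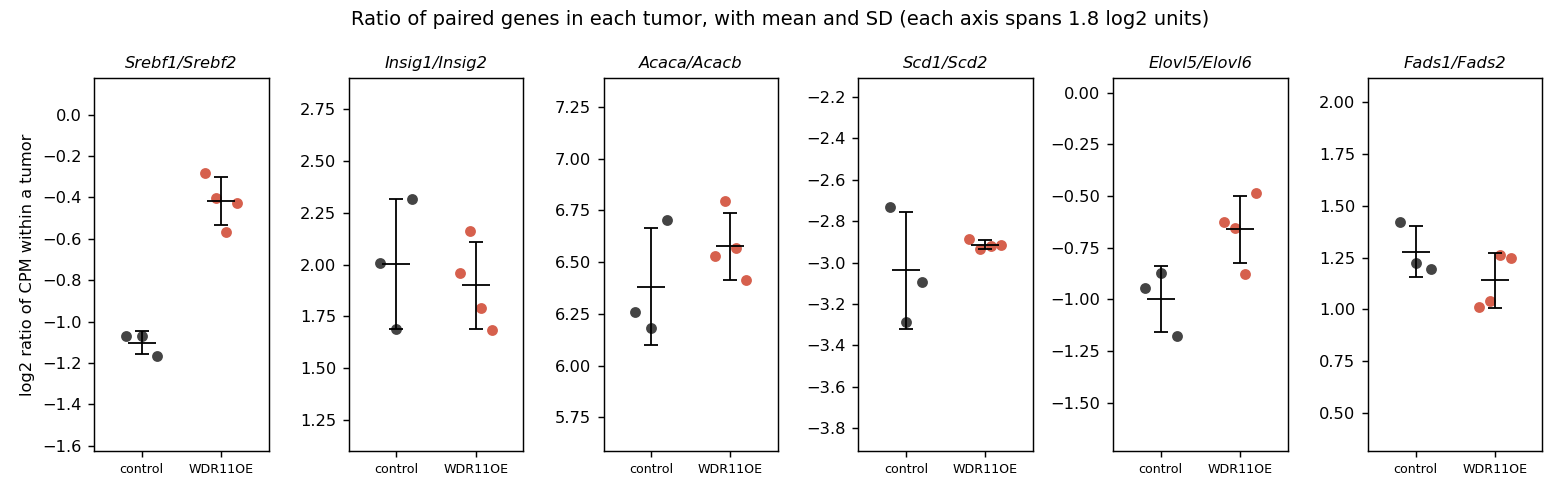
Log2 ratio of CPM of 6 pairs of related genes within each tumor (y axis, each spanning the same range), for 3 controls in gray and 4 tumors labelled WDR11OE in red, with the mean and SD. The ratio of Srebf1 to Srebf2 is the pair whose groups do not overlap, at -1.10 ± 0.06 against -0.42 ± 0.12.

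By abundance per length, the fatty acid genes led. In CPM per kb of exon, the controls held Scd2 at 130.8, Fasn at 76.7, Acly at 48.5, Fads1 at 36.2 and Fads2 at 34.2, the 5 highest of the 37 genes with a length. Fdps at 34.1, Mbtps1 at 32.9 and Srebf2 at 32.2 CPM per kb followed. In the tumors labelled WDR11OE, Scd2 was at 91.9, Acly at 57.0, Fdps at 53.6 and Fasn at 46.8 CPM per kb, while Srebf2 was at 14.0.

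Fold changes followed the GC content of the exons across the whole table and among these genes. Over 17125 genes with a GC value, Spearman's rho between log2 fold change and GC content was -0.34, and over 37 of the 38 it was -0.46, as a description across genes of the same libraries. The 10 genes that fell had a median GC content of 54.1%, the 4 that rose 46.7%, and all genes 49.8%. With the GC trend of each tumor removed, 8 calls of the 10 that fell and 2 calls of the 4 that rose were kept, while over all genes 28% passed, 14.3% lower and 13.6% higher. Srebf2 was then at a log2 fold change of -0.91 (adjusted p = 0.00280), and Dhcr7 at -0.88 (adjusted p = 0.00618). Lost were Srebf1, Fads2, Ebp and Insig2. Gained was Mbtps2, which has the lowest GC content of the 37 genes, 39.7%, and the GC content of Elovl6, whose fold change grew, was 44.0%. With the GC trend removed, the median log2 fold change of the 7 SREBP regulators was -0.30, against -0.52 as counted. That of the 12 fatty acid genes was -0.19, against -0.35. For the 18 enzymes of the mevalonate and sterol arms it was 0.10 both ways.

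**Figure D4:**
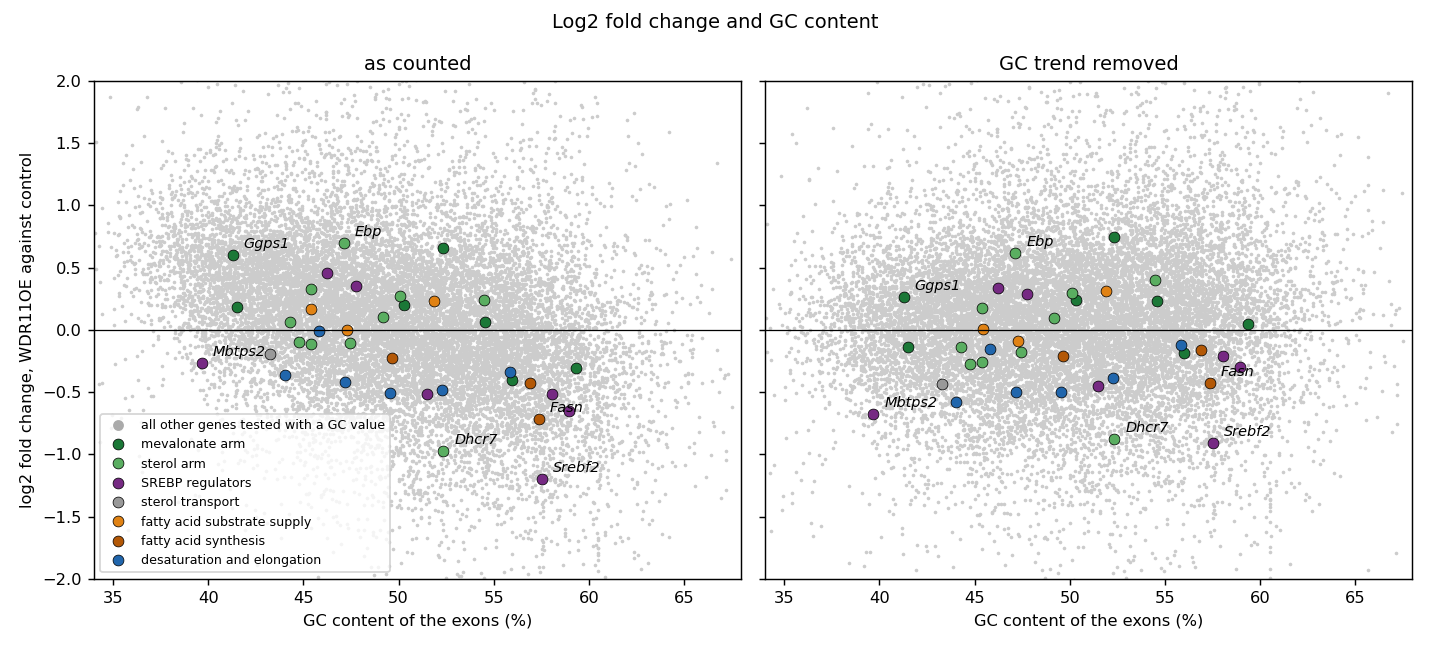
Log2 fold change (y axis) against GC content of the exons in percent (x axis) for 37 of the 38 genes, colored by role over all genes tested in gray, as counted (left) and with the GC trend removed (right). Genes beyond the axes, 356 on the left and 340 on the right, are not drawn. On the left the cloud slopes down and Srebf2 lies at -1.20. On the right the slope is gone, which follows from the removal of the trend, and Srebf2 lies at -0.91.

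Markers of other cells moved with the label as well. The summed level of 7 skeletal muscle markers was 1.38 to 2.14 CPM in the controls and 38.6 to 121 CPM in the tumors labelled WDR11OE, and all 7 rose. Adipocytes, which express Fasn and Scd1 strongly, had 2 of 5 markers that passed the filter. Plin1 rose (log2 fold change 2.21), and Fabp4 did not pass the test (0.74, adjusted p = 0.325). These 2 summed to 0.919 to 1.79 CPM in the controls and to 3.58 to 5.61 CPM in the tumors labelled WDR11OE. Of 7 endothelial markers, 3 fell, among them Cdh5 (-1.02) and Flt1 (-0.74), with sums of 121 to 155 CPM against 93.5 to 104 CPM. Neuron, astrocyte, oligodendrocyte and microglia markers had none of 7 each past the test. The glial sums varied between tumors, however. Astrocyte markers summed to 468 to 687 CPM in the controls and to 259 to 898 CPM in the tumors labelled WDR11OE. The oligodendrocyte sums were 99.1 to 226 CPM against 81.1 to 251 CPM, and the microglia sums 119 to 201 CPM against 100.1 to 179 CPM. Without control 1 and WDR11OE 4, the tumors richest in neuron markers, 9 of the 38 fell and 2 rose. In that fit 17.8% of all genes were lower and 14% were higher. The part of the muscle, fat, endothelial and glial RNA in the fold changes of the 38 genes was not tested.

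Further enzymes of the same pathways, outside the 38, moved in either direction. Of 13 other isoprenoid and sterol enzymes tested, 1 fell and 4 rose, with a median log2 fold change of 0.15, which makes 38.5% of them past the threshold against the 33.9% of all genes. Fntb, the beta subunit of the protein farnesyl transferase, fell (log2 fold change -0.89, SE 0.14, adjusted p = 0.00345). Fnta, the alpha subunit of the same transferase, rose (0.55, SE 0.11, adjusted p = 0.00953). Rabggtb, a subunit of the enzyme that attaches geranylgeranyl groups to Rab proteins, rose (0.86, SE 0.06, adjusted p = 0.000858). Its partner subunit Rabggta did not pass the test (-0.06, adjusted p = 0.761). Pdss1, which makes the side chain of ubiquinone, rose as well (0.75, SE 0.11, adjusted p = 0.00305). Pdss1 was at 0.44 with the GC trend removed (adjusted p = 0.0155). Of 13 other elongases and desaturases tested, 1 fell and 1 rose (15.4%), with a median of -0.22. Fads3, next to Fads2 in the genome, fell (-0.85, SE 0.18, adjusted p = 0.0105), and Ptpla, a dehydratase of very long chains, rose (0.54, SE 0.16, adjusted p = 0.0390).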

How the data were processed

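The data are RNA-seq of 7 mouse G3 MBs, 4 labelled WDR11OE and 3 controls. Per the submitters' processing notes, CASAVA 1.7, STAR, BWA and HTSeq were used on build mm9. The authors deposited raw counts per gene, made with HT-seq on a GENCODE annotation. The strand setting is not given in the sources used here. The labels name the TruSeq RNA kit v2 and the paper total stranded RNA. No column was left unused.

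Counts were analysed in R 4.3.3. Genes that passed filterByExpr of edgeR 4.0.16 (17389) were scaled by TMM and tested by the two-sided quasi-likelihood test, with the group as the only term and Benjamini-Hochberg adjustment over all of them. The paper used voom, here an alternative (limma 3.58.1), as was DESeq2 1.42.0. The 2-fold rule required an absolute log2 fold change of 1 or more, an adjusted p under 0.05 and an average log2 CPM above 0. CPM are TMM-scaled, and the common biological coefficient of variation was 34.6%. Ratios used log2 CPM with a prior count of 2 and an exact permutation over 35 splits. Exon length and GC content came from the annotation of the mm9 build, with 33606 rows (97.1%) matched, and the GC trend was a loess fit (span 0.3) per tumor, placed in the offset. No pair of libraries in a group agreed within counting noise. The labels do not say whether tumors came from separate cultures, so p-values measure the spread between these tumors. Titles of WDR11OE 1 and 2 share a number that no source explains. The 38 genes and the other lists were chosen with earlier results of these data known. Named were all 38 genes, in full those past the threshold plus Srebf1, Srebf2, Hmgcs1, Sqle, Fasn, Scd1, Scd2 and Acly, and at most the 2 lowest and 2 highest past the threshold of each other list. Fnta and Rabggta were named besides, as the partner subunits of Fntb and Rabggtb. Alternatives were other tests, scalings and filters, removal of GC or length trends, and leaving out each tumor. The fits without control 1 and WDR11OE 4, and with WDR11OE 1 and 2 summed, were chosen after seeing the data.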

Additional observations from a re-analysis of the deposited data

How the results depend on the processing

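Of the 14 genes past the threshold, Srebf2, Dhcr7, Fasn, Scap, Mbtps1, Fads1 and Ggps1 kept their direction and call in all 18 alternatives, and Srebf1 and Scd2 in 17. The others kept their direction in all 18 and their call in 14 (Elovl6), 12 (Fdps), 11 (Insig2), 10 (Fads2) and 9 (Ebp). The count of higher genes was 4, and 5 with upper quartile scaling, where Insig1 was added. It was 2 with no filter, with the GC trend removed or without control 1 and WDR11OE 4, and 1 with WDR11OE 1 and 2 summed. When each tumor was left out it was 1 to 4 (1 without control 2, WDR11OE 1 or WDR11OE 2). Over all genes, the share called higher was 20.4% with upper quartile scaling, 7.92% with no filter, 13.6% with the GC trend removed and 14% without control 1 and WDR11OE 4. It was 9.51% with WDR11OE 1 and 2 summed, and 9.12% to 17.6% when each tumor was left out. The count of lower genes was 7 to 12, where 10.2% to 19.3% of all genes were lower. The count of genes lower by at least 2-fold was 1, 0 with the GC trend removed, and 2 (Srebf2 and Dhcr7) with DESeq2, RLE scaling, no filter, without control 1 and WDR11OE 4, or with WDR11OE 1 and 2 summed, and 1 to 2 when each tumor was left out (2 without control 1 or WDR11OE 2). Elovl6 also lost its call with the length trend removed (adjusted p = 0.123), and Ebp and Insig2 with no filter. Genes that missed the threshold and passed it elsewhere were Mvk (DESeq2, library size scaling, length trend removed), Insig1 (upper quartile scaling), Mbtps2 (DESeq2, RLE scaling, GC trend removed, without WDR11OE 3) and Scd1 (without control 2).

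The Srebf1 to Srebf2 difference was 0.64 to 0.73 with each tumor left out, 0.70 without control 1 and WDR11OE 4 (exact permutation p = 0.100) and 0.65 with WDR11OE 1 and 2 summed (p = 0.100), the smallest p those sizes allow. With each tumor left out, that of Scd1 to Scd2 was -0.000223 to 0.28 and that of Insig1 to Insig2 -0.26 to 0.0524. Of the genes that missed the threshold, 9 changed sign somewhere: Me1 (0.0252 with voom, 0.0262 with upper quartile scaling, 0.00925 with WDR11OE 1 and 2 summed), Elovl5 (0.0200 with upper quartile scaling), Mvd (0.0508), Idi1 (-0.14) and Hsd17b7 (-0.14) with the GC trend removed, Hsd17b7 also with WDR11OE 1 and 2 summed (-0.0145), and Pmvk with the length trend removed (-0.0875) and without control 1 and WDR11OE 4 (-0.0644). When each tumor was left out, the log2 fold change ran from -0.0529 to 0.16 for Hmgcs1, -0.0289 to 0.16 for Pmvk, -0.0252 to 0.23 for Lss, -0.0664 to 0.22 for Hsd17b7, -0.23 to 0.00417 for Sc5d, -0.11 to 0.15 for Me1 and -0.0897 to 0.0516 for Elovl5. The cause of these changes was not tested. No paired analysis was possible because the labels give no replicate numbers. Counts as low as 57 in a tumor limit the precision of Acacb.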

Other observations

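Genes on either side of sterol and fatty acid synthesis are given here as values. Of 15 genes of the liver X receptors and of sterol efflux and storage, 3 were lower and 1 was higher in the tumors labelled WDR11OE, with a median log2 fold change of 0.01. Mylip, a ubiquitin ligase for lipoprotein receptors, was at 22.4 ± 1.41 CPM in the controls (SD, n = 3) and fell to 12.9 ± 1.33 CPM in the others (SD, n = 4), or -0.79 on the log2 scale (adjusted p = 0.00243). Soat1, which esterifies cholesterol for storage, fell from 168 ± 17.2 to 112 ± 12.2 CPM (-0.59, adjusted p = 0.00640). Cyp27a1, which makes an oxysterol, rose from 1.15 ± 0.396 to 3.06 ± 0.561 CPM (1.41, adjusted p = 0.0124).

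In glycerolipid synthesis, 2 of 13 genes fell and 2 rose, and in fatty acid oxidation 1 of 14 fell and 3 rose. Dgat2, an acyltransferase that makes triglyceride, fell (-0.87, adjusted p = 0.00226), and Dgat1, which catalyses the same step, rose (0.42, adjusted p = 0.0303). Agpat1 fell (-0.49, adjusted p = 0.0146) and Agpat5 rose (0.53, adjusted p = 0.00498), both acyltransferases of phosphatidic acid synthesis. With the GC trend removed, the calls of Agpat1 (-0.15, adjusted p = 0.334) and Agpat5 (0.27, adjusted p = 0.0887) were lost. Cpt1a, which admits fatty acids to mitochondria, fell (-0.74, adjusted p = 0.0353), and Hadhb, a subunit of the trifunctional enzyme of oxidation, rose (0.59, adjusted p = 0.00214), as did Acadvl, a dehydrogenase of long chains (0.47, adjusted p = 0.0119). With the GC trend removed, the calls of Cpt1a (-0.68, adjusted p = 0.0569) and Hadhb (0.23, adjusted p = 0.0887) were lost. Over all genes tested, 15.8% were lower and 18.1% higher, and the median log2 fold changes of these lists were -0.17 and -0.07.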
